A study of Mus musculus with 3 samples.

Results

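The genes of the cytosolic ribosomal proteins were followed in mPTECs, primary mouse kidney cells, straight after isolation and on culture dishes. They were found by name alone: a probe belonged to the set if its gene name on the array was Rpl or Rps with a number, Rplp0 to Rplp2 or Rpsa, and kinases and pseudogene names were left out. This gave 136 of 41174 probes and 81 of 19862 named genes, of which 46 encode standard proteins of the large subunit, 31 encode proteins of the small subunit, and 4 are paralogs known for restricted expression or a role in assembly (Rpl3l, Rpl22l1, Rpl39l and Rpl7l1). The cells came from the kidneys of male mice of 1 month, and no genetic change or drug treatment is named for them. Day 0 was the fresh isolate, and day 1 and day 3 were the cells after 1 and 3 days on dishes in DMEM/F12 with insulin, transferrin, selenium, hydrocortisone, amino acids, antibiotics and 1% serum. For each of these days 1 sample was labelled with Cy3 and hybridised to 1 Agilent array. No replicate stands behind any ratio between days, so none could be tested, and all of them describe these 3 arrays only. The mouse strain, the number of mice and any pooling are not given in the sources used here.

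A ribosome is built from a small and a large subunit, each a core of ribosomal RNA carrying many proteins that are needed together. The mRNAs of these proteins begin with a C followed by a run of pyrimidines, the 5′ terminal oligopyrimidine (TOP) tract, through which mTORC1 and the RNA-binding protein Larp1 control how much of them is translated. Cells that enter growth and division are known to make more ribosomes, whereas the tubule epithelium of an intact kidney is largely quiescent.

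The TOP tract lies at the transcription start, so the starts of 8 genes whose annotated start held such a run are shown here. Each line gives the 20 bases before the annotated start and the first 20 bases of the transcript from RefSeq (build GRCm38.p6). The capitals mark the C and T letters from the first such C within 5 bases of the start to the end of the run, and any C or T directly before it, as in Rpl35, is left in lower case.
Rpl15 (chr14:18270967-18271006, minus strand): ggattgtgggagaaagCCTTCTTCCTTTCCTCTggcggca
Rpl28 (chr7:4792945-4792984, plus strand): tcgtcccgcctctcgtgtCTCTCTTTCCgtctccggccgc
Rpl35 (chr2:39005112-39005151, minus strand): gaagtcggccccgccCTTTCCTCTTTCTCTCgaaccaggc
Rpl38 (chr11:114668560-114668599, plus strand): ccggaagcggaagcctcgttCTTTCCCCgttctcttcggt
Rplp2 (chr7:141447631-141447670, plus strand): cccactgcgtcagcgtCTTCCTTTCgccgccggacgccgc
Rps6 (chr4:86857348-86857387, minus strand): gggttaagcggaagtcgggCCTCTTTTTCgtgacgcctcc
Rps15a (chr7:118116128-118116167, minus strand): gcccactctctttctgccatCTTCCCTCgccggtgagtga
Rps18 (chr17:33955646-33955685, minus strand): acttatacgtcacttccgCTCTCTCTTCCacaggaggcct
The promoter table held 61 of the 81 genes, 57 of them standard subunits. A C at the annotated start followed by 4 pyrimidines was found in 13 of these 57 genes (22.8%) and in 3.01% of all 27025 genes of the table. Within 5 bases of the start it was found in 27 (47.4%), against 21.2% of all genes. The annotated starts of the other genes, such as Rpsa, held no such tract in this window, which says only that these letters were not there.

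Among the letters searched on both strands from 250 bases before to 50 bases after the start, CCGGAAG, the core recognised by Ets factors, was found in 24 of the 57 genes (42.1%) and in 9.93% of all genes. AAGATGGC, the Yy1 core, was found in 8.77% against 3.19%, and the GC box GGGCGG in 61.4% against 38.2%. The E-box CACGTG, which Myc and Max recognise, was found in 10.5% against 8.09%. CCGGAAG and AAGATGGC can overlap at AAG, the other strand of CCGGAAG can overlap a pyrimidine tract, and each was counted on its own. Genes with a pyrimidine tract at the start had median log2 ratios to day 0 of 1.03 on day 1 and 1.13 on day 3 (27 genes), and those without one 0.97 and 0.98 (30 genes). Genes with CCGGAAG had medians of 1.01 and 1.03, and those without it 1.00 on both days. The medians lay further apart for the rarer letters, at 1.18 and 1.27 for the 5 genes with AAGATGGC against 0.99 and 0.98, and at 1.07 and 1.29 for the 6 with CACGTG against 0.98 and 0.94. For GGGCGG they were 0.95 and 1.13 with it (35 genes) and 1.01 and 0.94 without. These are descriptions of small groups of genes on the same arrays.

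The 3 arrays shared 1 slide, and their 75th percentiles were between 1184 and 1515 intensity units. Signals below are given over this percentile, as multiples or on the log2 scale. No spot was saturated, and all 81 genes were well above background on every array. Probes printed several times on an array varied between their spots by 0.14 (median SD, log2), so that a ratio of 2 such spots is uncertain by 0.198, or 1.15-fold. This covers spotting and scanning only. All 14 markers of the proximal tubule were well above background on day 0, and their summed signal was 1470 times the 75th percentile on day 0, 238 on day 1 and 31.9 on day 3. Lrp2, the endocytic receptor megalin, had log2 signals of 7.09, 2.87 and 1.68. The 9 markers of the loop of Henle and distal nephron summed to 409, 96.8 and 17.6, the 5 of podocytes to 9.02, 1.82 and 2.35, and the 5 of endothelium to 21.3, 11.2 and 4.16. The 6 markers of leukocytes summed to 2.06, 3.38 and 2.19, the 6 of fibroblasts and pericytes to 9.38, 14.6 and 20.1, and the 6 of dividing cells to 1.29, 4.45 and 91.3. Such sums hide single markers that went opposite ways. The log2 ratios of the leukocyte markers ran from -1.49 to 3.61 on day 1 (median 0.02). Those of fibroblasts and pericytes ran from -0.96 to 2.83 on day 3 (median 0.79). No marker was at or below background, and the part of these shifts in the ribosomal protein results was not tested. In such bulk RNA, a change in the share of cells of a type and a change in RNA per cell cannot be told apart.

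After 1 day on dishes nearly the whole set of ribosomal protein genes had a higher signal. The median log2 ratio of day 1 to day 0 was 1.02, or 2.02-fold, beside -0.11 over the 18910 named genes compared. The ratio was above 0 for 79 of the 81 genes, beside 44.1% of all named genes. At least 2-fold higher were 43 of 81 (53.1%), beside a background of 13.5%, and at least 2-fold lower was 1, Rpl3l, beside 15.3%. These genes are bright on the array, and of the 1987 named genes in the top 10% by signal, 26.0% reached 2-fold and the median was 0.37. None was 4-fold higher, beside 3.37% of all named genes, so the set stood out by the number of genes that were higher rather than by the size of their ratios.

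**Figure D1:**
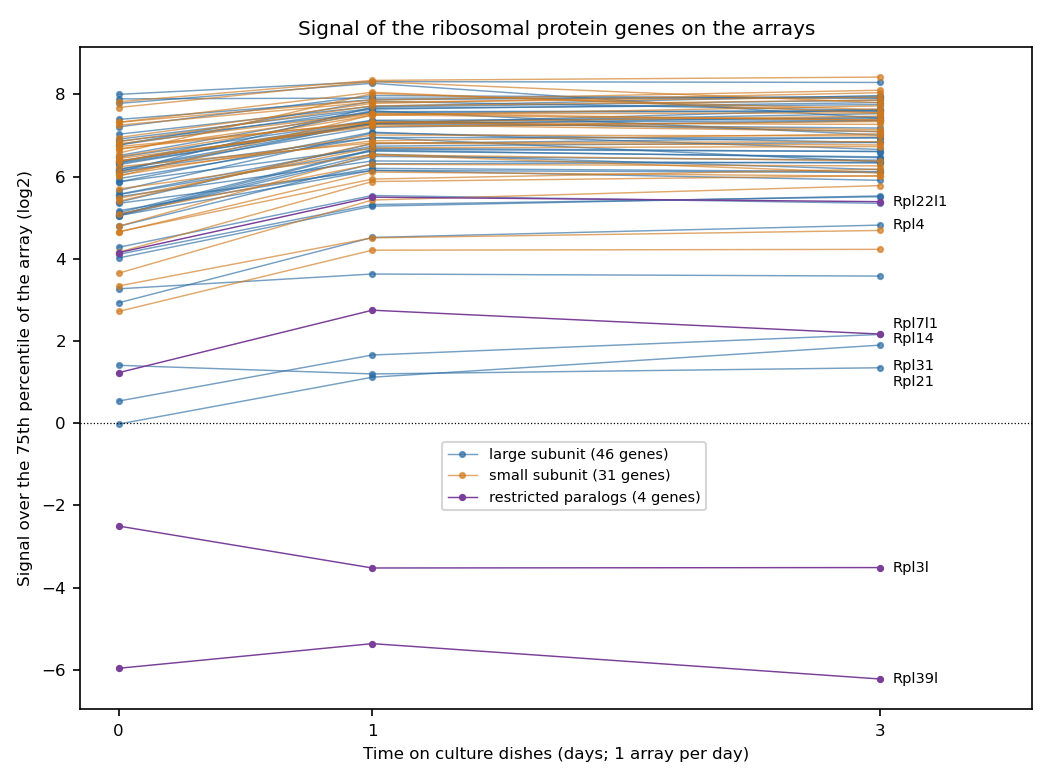
Signal of each of the 81 ribosomal protein genes (log2, over the 75th percentile of the array) against days on dishes, with 1 array per day and 1 line per gene. Most lines go up from day 0 to day 1 and stay level to day 3. The paralog Rpl3l goes down, from -2.50 to -3.52 and -3.51.

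The same set took up a larger part of the arrays' signal, a measure that sets each array against its own summed signal. Such a share also depends on the signal of the other genes, among them the tubule markers. Spots of ribosomal protein genes held 5.79% of the summed signal of all non-control spots on day 0, 10.5% on day 1 and 10.4% on day 3. The share was thus close to the same on both culture days and higher than in the fresh isolate. Scaling moved the ratios themselves: centring on the median shifted all of them by 0.22 from day 0 to day 1 and by 0.33 from day 0 to day 3, and spike-in probes by 0.18 and 0.38, each upwards. Such scalings move every gene alike and leave the median of the set at 1.12 (day 1) and 1.06 (day 3) above that of all named genes. With quantile normalization, which can change this distance, it was 0.84 and 0.77.

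The highest ratio on day 1 was that of Rpsa, the small subunit protein also known as the laminin receptor, which sits near the mRNA exit. Its signal was 12.6 times the 75th percentile on day 0, 43.1 on day 1 and 55.0 on day 3. This is 3.43-fold on day 1 and 4.37-fold on day 3, the only 4-fold difference in the set, where 5.32% of all named genes were 4-fold higher on day 3. The probe covers the start of the reading frame on mm9, with the start codon in capitals.
Rpsa (chr9:120037589-120037648): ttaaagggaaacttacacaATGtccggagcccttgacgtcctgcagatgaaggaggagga
A second Rpsa probe, much dimmer, gave log2 ratios of 2.19 and 2.10, so both probes of the gene placed it far above day 0 on both culture days.

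Close behind was Rps26, which contacts the mRNA in the exit channel of the small subunit and is one of the genes mutated in Diamond-Blackfan anaemia. Its signal was 17.9, 59.1 and 64.8 times the 75th percentile on days 0, 1 and 3 (3.31-fold and 3.63-fold). Rps15a, another protein of the small subunit, measured 27.6, 92.7 and 68.1 (3.36-fold and 2.47-fold) with its brightest probe, whereas a second probe, far dimmer but well above background, had log2 ratios of -0.51 and -0.65. Rps26 was thus as high on day 3 as on day 1, whereas Rps15a was lower on day 3 than on day 1. Rpl4, whose long loop lines the tunnel through which the new peptide leaves, measured 7.61, 23.0 and 28.2 (3.02-fold and 3.71-fold). Rpl12, at the base of the stalk, measured 69.1, 207 and 232 (2.99-fold and 3.36-fold). The Rpl12 probe is placed by the array files on chromosome 10 and not on chromosome 2, where RefSeq has the gene, so signal from a processed copy cannot be told apart from that of Rpl12. Rpl13a, which also takes part in interferon-driven silencing of translation, measured 33.7, 99.8 and 88.1 (2.96-fold and 2.61-fold). Rpl15 measured 34.8, 101 and 97.8 (2.90-fold and 2.81-fold), and Rpl18 27.6, 79.5 and 81.5 (2.88-fold and 2.95-fold). By their brightest probes all of these stood above the 2-fold line on both culture days.

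**Figure D2:**
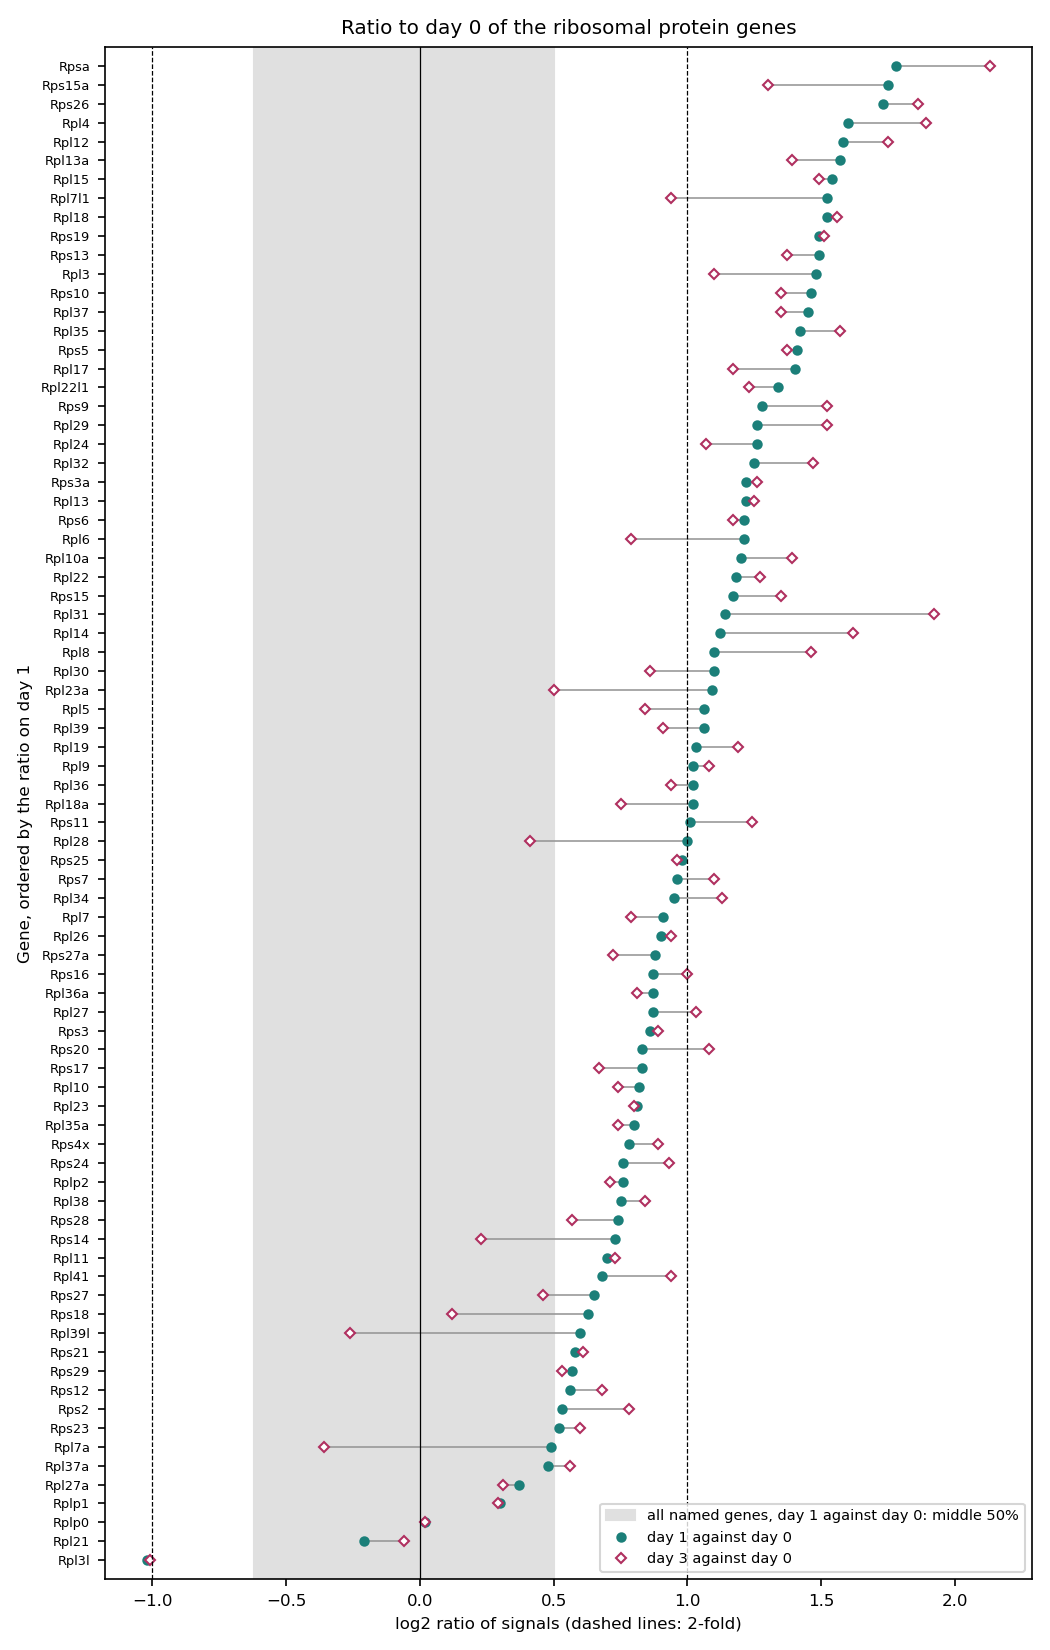
log2 ratio to day 0 of 80 of the 81 ribosomal protein genes on day 1 (filled circles) and day 3 (open diamonds), ordered by the ratio on day 1, with dashed lines at 2-fold and a grey band for the middle 50% of all named genes on day 1 (-0.62 to 0.50). Rpsa is at the top (1.78 and 2.13), Rpl3l at the bottom (-1.02 and -1.01), and most other genes lie to the right of the band.

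Both subunits took part. Of the 46 large subunit genes, 28 were at least 2-fold higher on day 1 and 22 on day 3, with medians of 1.04 and 0.94. Of the 31 small subunit genes, 13 and 16 were, with medians of 0.88 and 1.00. The shares of all named genes at least 2-fold higher were 13.5% and 16.5%. No gene of either group was 2-fold lower, beside 15.3% and 21.4% of all named genes. As the median of the set lies almost at 2-fold, these counts turn on small differences.

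The 8 proteins at the exit tunnel and its rim were Rpl4, Rpl17, Rpl19, Rpl23a, Rpl26, Rpl31, Rpl35 and Rpl39. Of these, 7 were at least 2-fold higher on day 1 and 5 on day 3, beside 13.5% and 16.5% of all named genes. The medians of the 8 were 1.12 and 1.18. Rpl35, a docking site for factors at the tunnel exit, measured 41.7, 112 and 124 times the 75th percentile (2.68-fold and 2.96-fold). Rpl31, on the same rim, was one of the dimmer members at 0.985, 2.18 and 3.73 (2.21-fold and 3.79-fold), and its second probe gave log2 ratios of 0.81 and 1.34. Rpl31 was therefore the gene of the set that went on furthest from day 1 to day 3. Rpl23a, where the signal recognition particle and nascent chain factors dock, was past 2-fold on day 1 only, at 91.2, 194 and 129 (2.13-fold and 1.41-fold). Rpl39 was so too, with log2 ratios of 1.06 and 0.91, and Rpl26 was past it on neither day (0.90 and 0.94).

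The 7 small subunit proteins along the path of the mRNA were Rps2, Rps3, Rps9, Rps23, Rps26, Rps28 and Rpsa. On each day 3 of them were at least 2-fold higher, beside 13.5% and 16.5% of all named genes. The medians of the 7 were 0.86 and 0.89. Rps9, at the mRNA entry, measured 25.3, 61.4 and 72.7 (2.43-fold and 2.88-fold). Rps3, an entry protein that also has a role in DNA repair, measured 101, 184 and 188 (1.82-fold and 1.86-fold). Rps23, which reaches into the decoding centre, measured 226, 324 and 342 (1.43-fold and 1.51-fold). The group therefore ran from the highest ratio of the whole set to some of the smaller ones.

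Rpl5 and Rpl11 bind 5S ribosomal RNA and, when assembly fails, inhibit Mdm2, and Rpl23 also binds Mdm2. Rpl5 measured 109, 227 and 196 (2.08-fold and 1.79-fold), Rpl11 116, 189 and 193 (1.62-fold and 1.66-fold), and Rpl23 70.3, 123 and 123 (1.75-fold and 1.74-fold). By their brightest probes all were higher on both culture days, by a little under the median of the set on day 3. Rps6, the substrate of the S6 kinases, measured 34.0, 78.6 and 76.6 (2.31-fold and 2.26-fold). Rps19, the gene most often mutated in Diamond-Blackfan anaemia, measured 6.59, 18.5 and 18.7 (2.81-fold and 2.84-fold). The second probes of Rpl11 (log2 ratios of -0.07 and -0.21) and Rps19 (0.18 and -0.38), both dim and without a RefSeq accession, did not share these ratios. That of Rpl23, dimmer than its first but with a RefSeq accession, gave 1.29 and 0.31. Rps27a, made as a fusion with ubiquitin, measured 83.0, 153 and 137 (1.84-fold and 1.65-fold). The 4 genes on the X chromosome, Rpl10, Rpl36a, Rpl39 and Rps4x, had medians of 0.85 on both days, between 0.78 and 1.06 on day 1, and so lay within the range of the set. The array files place the Rpl10 probe read here on chromosome 8, and the dimmer one placed on the X chromosome gave 0.97 and 1.11.

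Ratios were small for the stalk proteins, the flexible arm of the large subunit that recruits elongation factors. With Rpl12 at their base, the 4 genes had medians of 0.53 and 0.50, and Rpl12 alone was past 2-fold. Rplp1 measured 257, 317 and 314 times the 75th percentile (1.23-fold and 1.22-fold), and Rplp2 148, 251 and 241 (1.70-fold and 1.63-fold). Rplp0, which anchors the stalk and is in wide use as a reference gene for normalising mRNA levels, measured 237, 241 and 240 with its brightest probe (1.02-fold on both days). This last value depended on the probe. A second Rplp0 probe had log2 signals of 5.77, 6.94 and 7.28, or ratios of 1.17 and 1.51. The third, printed 10 times on each array, had 3.75 ± 0.101, 5.05 ± 0.114 and 5.37 ± 0.109 (SD over 10 spots of 1 array, which covers spotting only), or ratios of 1.30 and 1.62. The dimmer probes are shown because they were higher on both culture days, whereas the brightest one, which covers the end of the transcript, was level. On mm9 the array files place the first on chromosome 5, with the brightest probe, and the second on chromosome 3, so signal from a processed copy cannot be told apart from that of Rplp0 there.
Rplp0, log2 ratio 1.17 (chr5:116011423-116011482): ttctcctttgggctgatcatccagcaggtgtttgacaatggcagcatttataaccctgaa
Rplp0, log2 ratio 1.30 (chr3:93082297-93082356): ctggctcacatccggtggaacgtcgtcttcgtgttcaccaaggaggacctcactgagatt
Rplp0 was thus level across the days by 1 probe (log2 ratios of 0.20 and 0.40 with spike-in scaling) and more than 2-fold higher by the other 2.

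Rplp0 was not alone in this. Of the 24 ribosomal protein genes with at least 2 bright probes (above 4 times the 75th percentile on each array), the brightest probe gave a smaller ratio than the dimmest in 19 on day 1 and in 16 on day 3. Rps18 had log2 ratios of 0.63 and 0.12 with its brightest probe and 1.46 and 1.05 with the next. Rps2, a protein at the mRNA entry, had 0.53 and 0.78 with its brightest probe and 1.36 and 1.64 with the next. Across the 77 standard subunit genes the ratio fell as the mean signal went up, with a Spearman rho of -0.58 on day 1 and -0.53 on day 3 (Pearson r -0.23 and -0.39), a description of genes that share the same arrays. Over all probes of these genes the order was not that of signal throughout. The median ratio on day 1 was 0.83 for the 33 probes with a mean log2 signal of 7 or more, 1.04 for the 32 between 6 and 7, 1.21 for the 25 between 5 and 6 and 1.24 for the 12 between 4 and 5. It was 1.13 for the 8 probes between 0 and 4, and 0.19 for the 19 below 0. The scanner's software took most of these bright spots from a second scan at low gain, 95 of the 145 spots of the set on day 0, 115 on day 1 and 113 on day 3. Whether this or the cells set the smaller ratios of the brightest probes was not tested, so levels near 2-fold are given here as ratios of these signals and not of mRNA amounts. With the dimmest RefSeq probe above the 75th percentile standing for each gene, a choice made after the data had been seen, the medians were 1.11 and 1.09 (78 genes).

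**Figure D3:**
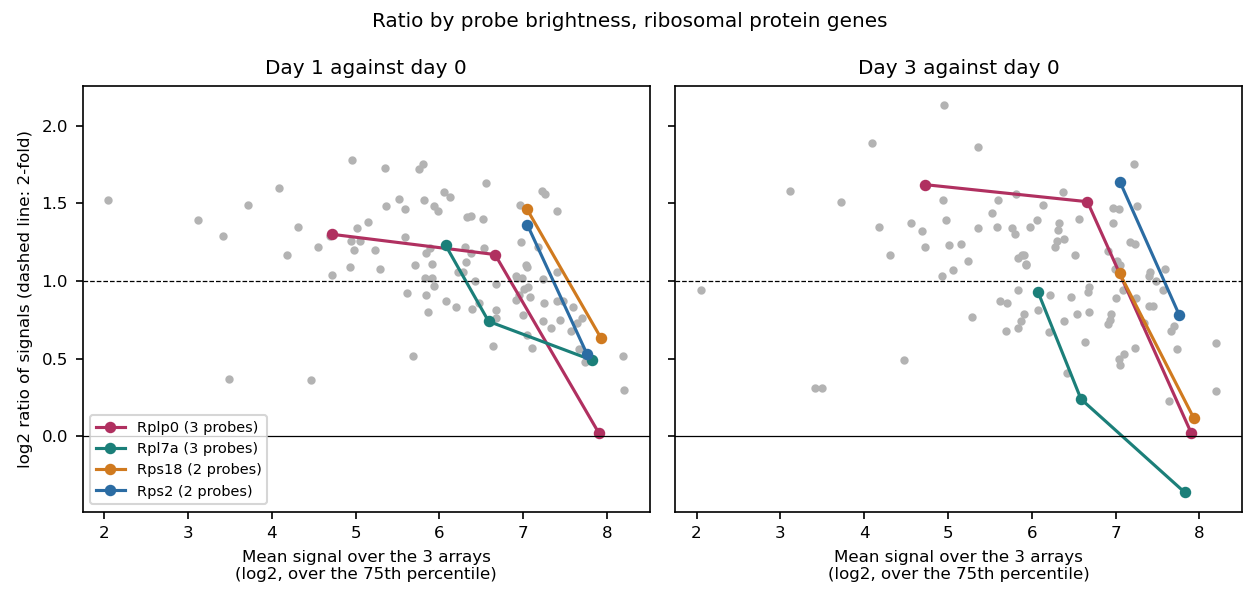
log2 ratio to day 0 against mean log2 signal for each probe of the ribosomal protein genes with a mean above 2, on day 1 (left) and day 3 (right), with the probes of Rplp0, Rpl7a, Rps18 and Rps2 joined. In each of these 4 genes the brightest probe has the lowest ratio of those plotted, for Rplp0 0.02 on both days against 1.17 to 1.62 for its other probes.

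From day 0 to day 3 the set was again higher. The median log2 ratio was 0.94 (1.92-fold), beside -0.11 over all named genes, and 77 of 81 genes were above 0, beside 45.4%. At least 2-fold higher were 39 of 81 (48.1%), beside a background of 16.5%, or 27.0% in the top 10% by signal. With median centring or spike-in scaling this count was 64, beside 23.7% and 24.9%, and with quantile normalization 33, beside 18.5%. Only Rpl3l was 2-fold lower, beside 21.4%. This comparison shares the day 0 array with that of day 1, so its similarity to it is no independent support. On both days 34 genes were past 2-fold, 9 were so on day 1 only, 5 on day 3 only and 32 on neither, and Rpl3l was past it downwards. The shared day 0 array favours such overlap for any gene. It was not counted over all named genes, so these counts describe the set and do not set it apart.

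Between day 1 and day 3 the ribosomal protein genes hardly moved. No gene was 2-fold higher or lower, beside 6.96% and 8.07% of all named genes. The same was so for the 74 assembly and nucleolar genes, the 78 mitochondrial ribosomal proteins and the 17 other TOP mRNAs described below. It was also so for the 12 reference genes, and of 38 initiation factors 1 was lower. Staying within 2-fold over this interval was thus not particular to the set. The median log2 ratio of day 3 to day 1 was 0.00 beside -0.04, 61 of 81 genes were within 0.25 of 0 and 74 within 0.5. The sign of this median depended on the scaling, from -0.14 with reference genes to 0.19 with spike-ins. Genes within 0.25 and 0.5 were not counted over all named genes. The quartiles of the log2 ratio were -0.15 and 0.15 for the set and -0.4 and 0.27 for all named genes. For the top 10% by signal they were -0.34 and 0.19, so many other genes also moved little. Over the same interval the markers of dividing cells had a median log2 ratio of 3.99 and those of the proximal tubule -2.19, while the ribosomal protein genes stayed near their day 1 signal.

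A few genes came down again. Rpl7a, a large subunit protein, measured 220, 308 and 171 times the 75th percentile with its brightest probe, so that day 3 was the lowest of the 3 arrays, although with spike-in scaling it was level with day 0 (log2 ratio 0.02). Its other probes were also lower on day 3 than on day 1, though above day 0, with log2 ratios to day 0 of 0.74 and 0.24 for one and 1.23 and 0.93 for the other. Both of these coding sequence probes are shown, the brightest first and then the dimmest, because they part over whether day 3 lay below or above day 0.
Rpl7a, brightest probe (chr2:26768694-26768753): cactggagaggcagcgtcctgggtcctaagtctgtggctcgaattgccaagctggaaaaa
Rpl7a, dimmest probe (chr2:26766993-26767052): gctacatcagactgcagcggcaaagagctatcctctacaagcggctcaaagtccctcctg
Rps18 measured 205, 318 and 222, and Rps14, a small subunit protein near the platform, 160, 265 and 187. Rpl28 measured 61.9, 124 and 82.2 and had a log2 ratio of day 3 to day 1 of -0.59, like Rpl23a. On day 3 these genes had given up part of their day 1 signal or, for the brightest Rpl7a probe, all of it. At the other end, Rpl31 and Rpl14 went on upwards, with log2 ratios of day 3 to day 1 of 0.78 and 0.50. Rpl14 measured 1.46, 3.16 and 4.47 (2.17-fold and 3.06-fold), and Rpl8, close to the centre of peptide bond formation, 72.6, 156 and 199 (2.15-fold and 2.74-fold).

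Some members were near their day 0 signal on both days. Rpl21 measured 2.66, 2.30 and 2.56 (log2 ratios of -0.21 and -0.06), within or close to the spot spread, and was the only standard subunit gene below day 0 on day 1. Its sign turned with the scaling, to 0.01 on day 1 and 0.27 on day 3 under median centring. Its second, dimmer probe gave 0.14 and 0.37. Rpl27a measured 9.61, 12.4 and 11.9 (1.29-fold and 1.24-fold), and Rpl37a 167, 234 and 247 (1.40-fold and 1.47-fold). Small ratios were thus not limited to bright probes, since those of Rpl21 and Rpl27a gave much lower signals than that of Rplp1.

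The paralogs went separate ways. Rpl3l, which replaces Rpl3 in the ribosomes of skeletal muscle and heart, measured 0.177, 0.0873 and 0.0880 times the 75th percentile, 2.03-fold lower on day 1 and 2.01-fold lower on day 3. Its partner Rpl3, which helps to form the peptidyl transferase centre, measured 33.6, 93.7 and 71.9 (2.79-fold and 2.14-fold higher). The pair therefore moved in opposite directions. Under each other scaling tried Rpl3l was lower by less than 2-fold. Rpl22l1, which can stand in for Rpl22, measured 17.8, 45.2 and 41.8 (2.54-fold and 2.35-fold), close to Rpl22 itself at 47.4, 107 and 114 (2.26-fold and 2.41-fold). Rpl7l1, a factor of large subunit assembly, measured 2.34, 6.75 and 4.51 (2.88-fold and 1.92-fold), and Rpl7 83.5, 157 and 145 (1.88-fold and 1.73-fold). Rpl39l, known from testis, was the dimmest member at 0.0161, 0.0243 and 0.0134, with log2 ratios of 0.60 and -0.26, the latter above 0 with median centring, spike-in scaling and quantile normalization. Its second probe was well above background on day 3 alone.

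For 42 genes there was more than 1 probe. All but 2 of the probes of the set were well above background on every array. Without those 2, the probes of 6 genes pointed in different directions on day 1 and those of 11 on day 3, and for Rpl22 and Rps6 they were past 2-fold on both sides. The coding sequence probe of Rpl22 is shown, as the gene's direction rests on it.
Rpl22 (chr4:151704158-151704217): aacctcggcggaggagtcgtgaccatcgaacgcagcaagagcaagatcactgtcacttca
It had log2 signals of 5.57, 6.74 and 6.83, whereas a probe further along chromosome 4, at 151708012-151708071, had 2.45, 1.45 and 1.00, and with the mean of both the ratio on day 3 was -0.09. The second Rps6 probe, which carries a clone accession, was dim at log2 signals of -3.17, -2.99 and -4.56. As a class, the 20 probes with clone or expressed sequence tag accessions had medians of 0.70 and 0.49, and the 116 probes with RefSeq accessions 1.06 on both days.

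Ribosomal protein genes have many processed pseudogenes, which lack introns, so the probes that cross an exon junction are of interest. On mm9, 37 probes of 34 genes covered more than their own 60 bases, and their median log2 ratios were 1.11 on day 1 and 1.10 on day 3, against 0.95 and 0.93 for the 99 others. Among the 37 is a probe of Rps13 that spans 64 bases, a gap too short for an intron. The medians of probes with a wider span were thus no lower than those of the others. The others also reached lower mean log2 signals, down to -7.53 against -3.17, so the 2 classes differ in more than introns. The part of pseudogenes in these ratios was not tested.

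Ribosomal proteins outside the name rule were higher by less. Of the 6 measured, among them Fau, Rack1, Rps27l, Rpl36al and Rps4l, none was 2-fold higher, the median log2 ratios were 0.61 on day 1 and 0.81 on day 3, and all 6 were above 0. Fau, which yields Rps30, measured 140, 204 and 216 times the 75th percentile. The 78 mitochondrial ribosomal proteins, which build the separate ribosome of that organelle, differed less from day 0 than the cytosolic set. At least 2-fold higher were 12 of them on day 1 (15.4%) and 7 on day 3 (8.97%), close to or under the background, with medians of 0.40 and 0.32. Mrpl33 had the highest log2 ratio on day 3, at 1.93, and Mrpl50 the lowest, at -1.63.

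Genes that build ribosomes had larger ratios than the ribosomal proteins. Of 74 genes of the nucleolus and of ribosome assembly, 64 were at least 2-fold higher on day 1 and 59 on day 3. The median log2 ratios were 1.88 (3.69-fold) and 1.80 (3.49-fold), and 26 and 23 of them were 4-fold higher. Of all named genes, 13.5% and 16.5% were 2-fold higher and 3.37% and 5.32% 4-fold higher, which also holds for the lists that follow. The assembly genes were much dimmer, with a median log2 signal on day 0 of 0.61 against 6.03 for the ribosomal proteins. As ratios fell with signal among the latter, the part of signal in this difference was not tested. Ddx21, a helicase of ribosomal RNA processing, had log2 signals of -1.71, 1.79 and 1.47 and was 9.05-fold higher on day 3. Nop56, of the snoRNPs that methylate ribosomal RNA, was 7.08-fold higher, and Nhp2, of those that place pseudouridine, 6.63-fold. Rrp1b, a nucleolar protein, was 2.59-fold lower, and Sbds, which frees the large subunit of Eif6, was near its day 0 signal with a log2 ratio of -0.16. Of 15 genes of RNA polymerase I and its factors, which transcribe ribosomal RNA, 11 were 2-fold higher on day 1 and 7 on day 3, with medians of 1.31 and 0.95. Its largest subunit, Polr1a, was 4.12-fold higher on day 3, while Ubtf, the factor bound to ribosomal DNA, had a log2 ratio of 0.24.

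**Figure D4:**
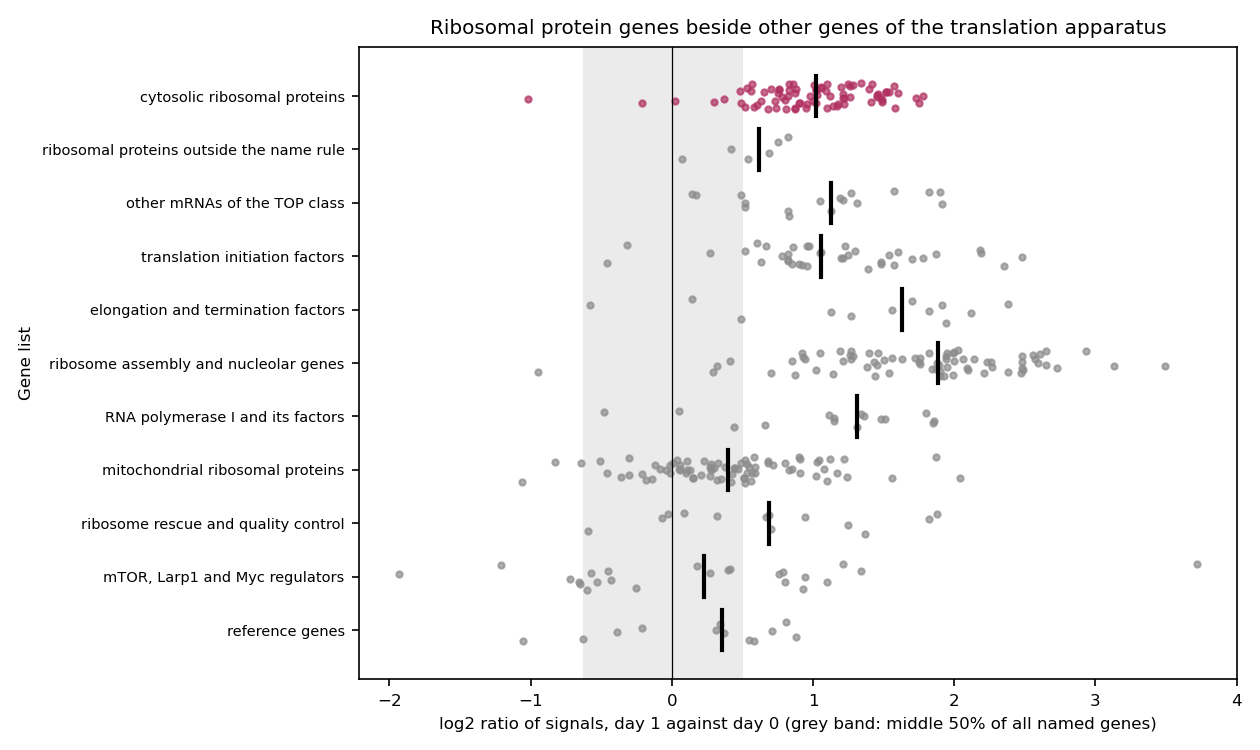
log2 ratio of day 1 to day 0 for each gene (points) of the cytosolic ribosomal protein set and of other lists of the translation apparatus, with the median of each list as a black bar and the middle 50% of all named genes as a grey band. The bar of the assembly and nucleolar genes is at 1.88, that of the cytosolic ribosomal proteins at 1.02 and that of the mitochondrial ones at 0.40. The lists differ in signal, with median log2 signals on day 0 of 0.61, 6.03 and 2.96 in this order.

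The translation factors lay nearer to the ribosomal proteins. Of 38 initiation factors, 20 were 2-fold higher on day 1 and 22 on day 3, with medians of 1.05 and 1.10. Eif6, which keeps the subunits apart and takes part in large subunit assembly, was 4.95-fold higher on day 3, and Eif2s2, a subunit of the factor that brings the initiator tRNA, 4.55-fold. Eif2s1, of the same factor, had log2 signals of 2.04, 4.39 and 4.04. Eif4a2, a helicase paralog of Eif4a1, was 2.49-fold lower. Of 17 other mRNAs of the TOP class, 10 were 2-fold higher on each day, with medians of 1.13 and 1.04. Hnrnpa1 and Npm1 were 4.02-fold and 3.52-fold higher on day 3, Eef1g had log2 signals of 5.31, 7.22 and 7.31, and Eef1a1 and Tpt1, both of high signal, had log2 ratios of 0.16 and 0.14. Of 12 elongation and termination factors compared on day 1, 9 were 2-fold higher, and of 13 on day 3, 9 were. Npm1 and several Eif3 and Eef1 genes stand on more than 1 of these lists.

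The regulators did not go one way. Of 24 genes of mTOR, Larp1 and Myc signalling, 4 were 2-fold higher and 2 lower on each day, the higher share (16.7%) near the background, with medians of 0.23 and -0.06. Eif4ebp1, the inhibitor of the cap-binding protein that mTORC1 turns off, had log2 signals of 2.36, 6.08 and 5.86 and was 11.3-fold higher on day 3. Pdcd4, an inhibitor of Eif4a, was 4.87-fold lower, and Mxd1, a partner of Max that opposes Myc, 2.95-fold lower. Ddit4, an mTORC1 inhibitor, was 3.57-fold higher. Of 13 genes of ribosome rescue and quality control, 4 were 2-fold higher on day 1 (30.8%, beside 13.5% of all named genes) and 3 on day 3 (23.1%, beside 16.5%), among them Serbp1, which binds idle ribosomes, at 2.98-fold, while Ltn1, the ubiquitin ligase of stalled chains, was 2.03-fold lower on day 3. These arrays measured mRNA, and neither translation nor protein was measured.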

How the data were processed

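Total RNA of 3 samples, 1 per day, was amplified and labelled with Cy3 per the labels' protocols. Per the file headers, Feature Extraction 10.5.1.1 measured the spots, whereas version 9.1 stands in the submitters' processing notes. In the deposited array files the processed signal is an intensity, background subtracted, with a multiplicative trend correction on the arrays of day 0 and day 1 and not of day 3. Per the file headers, the mean signal, local background and background-subtracted signal are intensities too, and flags of other kind mark spots well above background, outliers, saturated spots and spots taken from the low-gain scan. The authors' deposited value table is a ratio, the processed signal over the 75th percentile of the array, on a linear scale.

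Here each array's processed signal was divided by the 75th percentile of its non-control spots and taken as log2. Outlier spots (94, 102 and 85) were left out, and spots of 1 probe were averaged. A gene was read from its brightest probe (mean over the arrays). Probes were named by RefSeq accession (26888), symbol (5025) or synonym (832), and 8429 had no gene name. Genes were compared if 1 or both arrays had them well above background, with a bound in place of a signal not above background, and counted genes from 2-fold. With 1 array per day, no test was made, and precision is limited by this number. The values of 1 gene of the set and of 1 other gene are not reported here, though both enter the counts and medians. In full were given the genes with the largest and smallest ratios and members of the role lists. Apart from the marker Lrp2, genes outside the set were named among the 3 highest and 3 lowest of a list on day 3. The members and lists were chosen with earlier results of these data known. Alternatives were median centring, scaling to 12 reference genes or 9 spike-in probes, quantile normalization, normexp (limma 3.58.1, R 4.3.3, offset 50), no trend correction, the mean of all probes, other filters, the deposited value table, naming by accession, and 4-fold or 1.5-fold. Probes are placed as in the array files (mm9), and promoters are from RefSeq on GRCm38.p6. Python 3.11.15, numpy 2.4.6 and pandas 2.3.3 were used, and the scripts were tested on simulated data.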

Additional observations from a re-analysis of the deposited data

How the results depend on the processing

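The median log2 ratio of the ribosomal protein genes kept its sign to day 0 under every alternative run, from 0.74 to 1.24 on day 1 and from 0.63 to 1.32 on day 3. The highest values came from median centring (1.24 and 1.27) and, on day 3, spike-in scaling (1.32). The lowest, 0.74 and 0.63, came from the 6 genes with a probe above the 75th percentile that was never read at low gain, an alternative chosen after the data had been seen, and the cause was not tested. The count of genes 2-fold higher on day 3 was 64 with median centring and with spike-in scaling, against 39, because the median lies close to the line. With quantile normalization this count was 33 on day 3, and on day 1 it was 32 against 43. The shares of all named genes with quantile normalization were 18.5% on day 3 and 13.8% on day 1. At 1.5-fold it was 69 on day 1 and 66 on day 3, and at 4-fold 0 and 1, the latter beside 3.37% and 5.32% of all named genes. The share of all named genes past 1.5-fold is not given, so the 1.5-fold counts describe the set alone. The count of 1 gene lower on day 1, Rpl3l, became 0 with median centring, reference genes, spike-ins, quantile normalization, normexp, no trend correction and 4-fold. On day 3 it became 0 under the same settings apart from no trend correction. Between day 3 and day 1, 1 gene was higher and 4 were lower at 1.5-fold, again without a share over all named genes. Of 1056 single gene values over 48 genes, 856 moved by under the spot spread, and 1 past 2-fold turned its direction, Rpl22 on day 3, at -0.09 with the mean of all probes. Another 12 values, of Rpl21, Rpl7a, Rpl39l and Rplp0, changed sign from under 2-fold. The share of all named genes 2-fold higher to that lower on day 3, 16.5% to 21.4%, became 23.7% to 15.5% with median centring and 24.9% to 14.9% with spike-ins. No paired analysis was possible because each day has 1 array. With 1 array per day no alternative measures the spread between cultures or animals, and the bright signals of these genes rest largely on the low-gain scan.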
